A study of Mus musculus with 18 samples.

Results

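The 10 genes described here belong to Nodal and activin signalling and were chosen by name: the ligands Nodal and Gdf3, the co-receptor Tdgf1, the receptor Acvr2b, the transducers Smad2 and Smad3, and the inhibitors Lefty1, Lefty2, Smad7 and Skil. All 10 were present in the count tables of both cell types, among 13104 genes of mouse embryonic stem cells (ESCs), 13717 genes of epiblast-like cells (EpiLCs) and 12410 genes of both. The study asked whether Δ9-THC, the main psychoactive compound of cannabis, changes transcription in cells that model the early embryo. The RNA-seq covered 12 libraries, with 3 labelled as biological replicates in each of 4 groups: ESCs with vehicle, ESCs with Δ9-THC at 100 nM, EpiLCs with vehicle and EpiLCs with Δ9-THC at 100 nM. All of the cells were BVSC cells, with Blimp1::mVenus and Stella::ECFP as reporters of germ cell genes, and the vehicle was ethanol at the same concentration as in the exposed cultures. ESCs were grown in medium with 2 kinase inhibitors and LIF, and EpiLCs were derived from them in medium with activin A and bFGF, under exposure through both stages. A female and a male BVSC clone are described, and the labels do not say which was sequenced. Libraries of primordial germ cell-like cells were not analysed here.

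Nodal and activin are secreted ligands of the TGF-β family. They bind type I and type II receptors, for Nodal together with a co-receptor of the Cripto family, and the receptors phosphorylate Smad2 and Smad3, which enter the nucleus with Smad4 and act there with partners such as Foxh1. Nodal, Lefty1, Lefty2, Smad7 and Skil are known as targets of the pathway, so that it induces its own ligand as well as inhibitors that act outside the cell (the Lefty proteins) or inside it (Smad7 and Skil). In the mouse embryo the pathway maintains the epiblast and patterns it before gastrulation. Activin A in EpiLC medium acts on the same receptors.

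Each library held between 23427551 and 32096698 adjusted counts in all, and the 10 genes had between 478 and 26036 counts in each library. The cell types matched their labels in naive and EpiLC markers. Of 2 shared pluripotency genes, Pou5f1 was not called between vehicle EpiLCs and ESCs, with a log2(fold-change) of -0.02. Sox2 was called lower in EpiLCs, at -2.03. Of 8 naive pluripotency markers, all 8 were lower in EpiLCs, with a summed level of 3395 to 3665 CPM (reads per gene relative to library size) in ESCs and 124 to 166 in EpiLCs, and the 5 EpiLC markers measured in both cell types were all higher in EpiLCs. Defining endoderm markers were low, with 1 of 6 listed in the ESC table at up to 3.39 CPM and 2 of 6 in the EpiLC table at up to 9.88 CPM summed. Of 3 trophectoderm markers only Eomes was measured, at 8.03 to 16.2 CPM in ESCs and 3.65 to 5.27 CPM in EpiLCs. Fibroblast markers reached up to 7.4 CPM summed in ESCs and 15.35 CPM in EpiLCs. The authors had adjusted the counts for batches that the sources used here do not name, with ESCs and EpiLCs in tables of their own. In these tables, the deviations of same-numbered vehicle and exposed libraries from their group means mirrored each other, with correlations across genes of -0.988 to -0.978 in the 6 pairs, so the 6 libraries of a cell type carry little more than 3 independent differences. The SDs and tests rest on these adjusted counts, for the comparisons of exposures and for those of cell types. They do not show the spread of replicates before the adjustment. The main fits treat all libraries as independent, so their SEs and p-values can be too small. For Δ9-THC in ESCs, main SEs were 0.039 for Nodal, 0.033 for Smad2 and 0.14 for Lefty1. With the replicate number as a block they were 0.076, 0.071 and 0.13. Values fitted with the block are given beside the main ones where a call changes. In the model of 12 libraries this block spans both cell types. Deviations of same-numbered libraries of different cell types correlated at -0.136 to 0.142, so there the block cannot fully account for the mirroring. Counting error was 0.646% to 4.16% of the level of a gene, and the SD between libraries was 1.94% to 14.9% of the mean in ESCs and 4.35% to 24.3% in EpiLCs, below counting error in 2 of 40 cases (Smad3 in both groups of ESCs). In bulk libraries, fewer cells with a transcript and less of it per cell cannot be told apart.

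Lefty1 and Lefty2 are neighbouring genes on the plus strand of chromosome 1 and close copies of each other, so whether reads can tell them apart bears on their values below. Over the whole coding sequence of 1104 bases, the genes were 91.8% identical, and the longest identical run was 140 bases. None of the windows of 150 bases in the transcripts of either gene occurred in a transcript of another gene, and the authors kept only reads that mapped to a single place. Smad2 and Smad3 are less alike, with 70.2% identical coding bases and no identical run over 23 bases. For Tdgf1, 0.28% of the windows of 150 bases also occurred in the pseudogene Tdgf1-ps1, and the other 7 genes shared none.

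Levels of different genes were compared as CPM per kilobase of exon. Tdgf1, which encodes Cripto, was the most abundant of the 10 in every group, at 215 ± 17.5 CPM per kilobase in vehicle ESCs (SD, n = 3) and 330 ± 14.4 in vehicle EpiLCs. Lefty2, Gdf3 and Nodal followed in vehicle ESCs at 46.4, 41.1 and 34.0 CPM per kilobase, and the receptor Acvr2b was lowest at 5.10. In vehicle EpiLCs the order began with Tdgf1, Lefty1 at 112, Lefty2 at 62.8 and Nodal at 44.1 CPM per kilobase, and ended with Smad2 at 7.5 and Smad3 at 5.30. Lefty1 thus was the sixth of 10 in ESCs and the second in EpiLCs, while Gdf3 was the third in ESCs and the sixth in EpiLCs, with either exposure. In vehicle ESCs, no neighbours in the order overlapped between their 3 libraries. In vehicle EpiLCs, the ranges of Skil and Gdf3, of Smad7 and Acvr2b, and of Acvr2b and Smad2 overlapped. With Δ9-THC, overlap was found for Smad7 and Lefty1 in ESCs, and for Lefty2 and Nodal, Skil and Gdf3, and Smad7 and Acvr2b in EpiLCs.

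**Figure D1:**
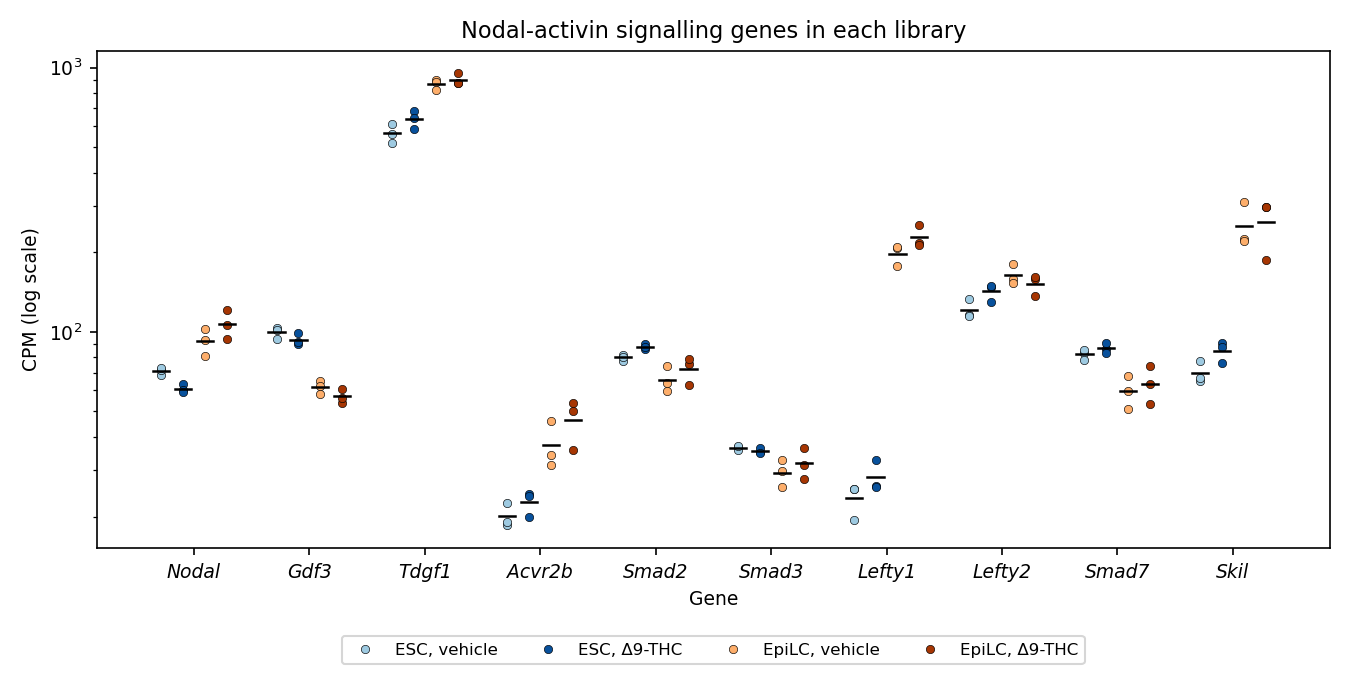
CPM of the 10 genes in each of the 12 libraries, on a log scale. Points are libraries, coloured by cell type and exposure, and black lines are means of 3. Lefty1 and Skil sit far higher in EpiLCs than in ESCs, Tdgf1 is the highest gene in every group, and the points of vehicle and exposed cells lie close together.

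From ESCs to EpiLCs with the vehicle, all 10 genes passed the test, 6 of them higher and 4 lower in EpiLCs. This is to be read against a background in which 36.5% of the 12410 genes were called higher and 37.2% lower (edgeR quasi-likelihood test over the 12 libraries). The median log2(fold-change) was 0.41 over the 10 genes and 0.00 over all genes, and the median size of the change was 0.54 and 0.48. A log2(fold-change) over 1 was reached by Lefty1 and Skil, 2 of 10 genes, against 11.2% of all genes. The tables of the cell types were adjusted separately by the authors, so level differences between them also carry any difference between the adjustments. Where cell types are said below not to overlap, the share of all genes without overlap was not counted.

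Lefty1, a secreted antagonist of Nodal, showed the largest difference of the 10. Its level was 25.4, 19.4 and 25.5 CPM in the 3 vehicle ESC libraries and 177, 207 and 209 CPM in the 3 vehicle EpiLC libraries. Every EpiLC library was several times above every ESC library. The mean rose from 23.5 ± 3.50 to 198 ± 17.6 CPM (SD, n = 3 each), 8.41-fold, with a log2(fold-change) of 3.07 (SE 0.13, adjusted p = 5.52e-10 by edgeR with Benjamini-Hochberg adjustment). Lefty2, the second antagonist, was measured at 133, 116 and 115 CPM in vehicle ESCs and at 159, 181 and 153 CPM in vehicle EpiLCs. The groups did not overlap, but the step was far smaller than for Lefty1, with a log2(fold-change) of 0.44 (SE 0.092, adjusted p = 0.000934 by edgeR with Benjamini-Hochberg adjustment).

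Skil encodes SnoN, a nuclear repressor of Smad activity. It was at 77.7, 65.0 and 67.1 CPM in vehicle ESCs and at 225, 311 and 221 CPM in vehicle EpiLCs. The EpiLC libraries were all higher and were also more spread, with the second replicate above the other two. The log2(fold-change) was 1.85 (SE 0.18, adjusted p = 1.27e-06 by edgeR with Benjamini-Hochberg adjustment), a 3.61-fold higher level. Smad7, an inhibitory Smad that blocks the receptors, moved the other way, from 82.2 ± 3.69 to 59.6 ± 8.45 CPM (SD, n = 3 each). Its log2(fold-change) was -0.46 (SE 0.12, adjusted p = 0.00322 by edgeR with Benjamini-Hochberg adjustment).

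Among the ligands, Nodal was at 68.5, 71.9 and 72.9 CPM in vehicle ESCs and at 81.3, 92.9 and 103 CPM in vehicle EpiLCs. All EpiLC libraries were higher, with a log2(fold-change) of 0.38 (SE 0.095, adjusted p = 0.00323 by edgeR with Benjamini-Hochberg adjustment), and of 0.24 with offsets for GC content and gene length. Gdf3, a ligand that also acts through Cripto, was lower in EpiLCs, at 93.7 to 103 CPM in the vehicle ESC libraries and 58.3 to 65.4 CPM in the vehicle EpiLC libraries. Its log2(fold-change) was -0.68 (SE 0.067, adjusted p = 1.56e-06 by edgeR with Benjamini-Hochberg adjustment). The 2 ligands therefore changed in opposite directions.

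The co-receptor Tdgf1 rose from 563 ± 45.8 to 865 ± 37.7 CPM (SD, n = 3 each), a log2(fold-change) of 0.62 (SE 0.078, adjusted p = 1.42e-05 by edgeR with Benjamini-Hochberg adjustment). Acvr2b, a type II receptor for activins and Nodal, was at 22.6, 18.5 and 19.0 CPM in vehicle ESCs and at 34.1, 31.4 and 45.9 CPM in vehicle EpiLCs. It was higher in each EpiLC library than in any ESC library, and highest in the third EpiLC replicate. The log2(fold-change) was 0.88 (SE 0.17, adjusted p = 0.000446 by edgeR with Benjamini-Hochberg adjustment).

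The receptor-regulated Smads were both lower in EpiLCs, by small amounts. Smad2 went from 80.0 ± 2.02 to 65.9 ± 7.62 CPM (SD, n = 3 each), a log2(fold-change) of -0.28 (SE 0.091, adjusted p = 0.0150 by edgeR with Benjamini-Hochberg adjustment). Smad3 went from 36.4 ± 0.706 to 29.4 ± 3.40 CPM, a log2(fold-change) of -0.31 (SE 0.096, adjusted p = 0.0114 by edgeR with Benjamini-Hochberg adjustment). The SDs of both were larger in EpiLCs than in ESCs. These are the calls that depended most on single libraries: without the third vehicle EpiLC replicate, the adjusted p of edgeR (Benjamini-Hochberg) for Smad2 was 0.0633, and without the first it was 0.0563 for Smad3. With offsets for GC content and gene length, the log2(fold-change) of Smad2 was -0.11 (edgeR, Benjamini-Hochberg adjusted p = 0.172).

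**Figure D2:**
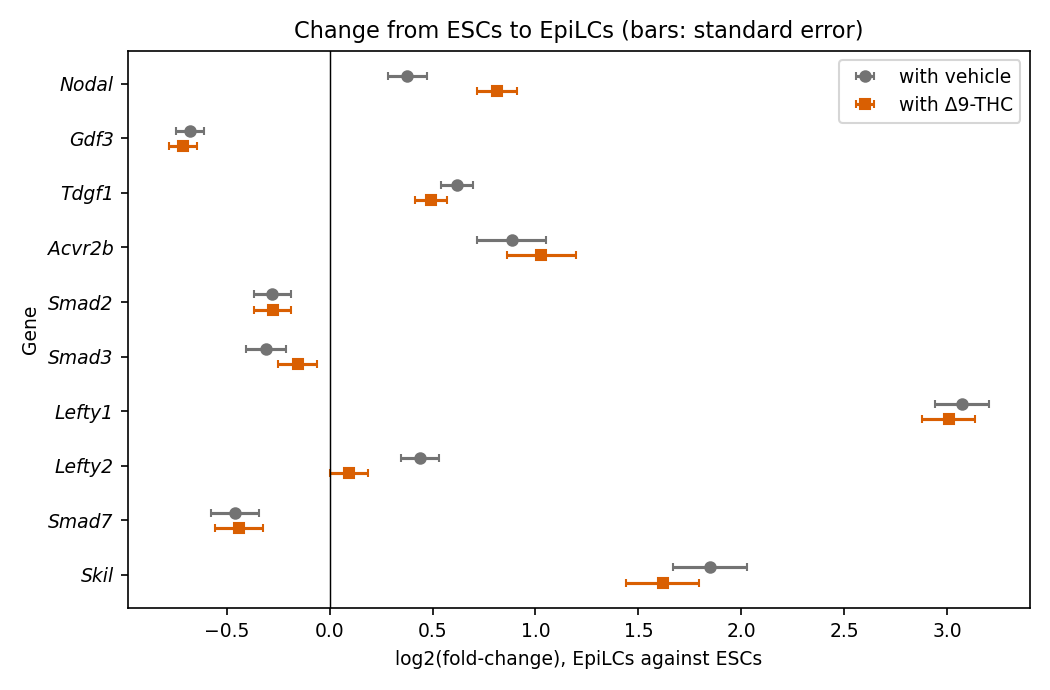
Fitted log2(fold-change) of EpiLCs against ESCs for the 10 genes, with the vehicle (grey circles) and with Δ9-THC (orange squares). Bars are standard errors. Lefty1 lies near 3 and Skil between 1.62 and 1.85, while Gdf3, Smad2, Smad3 and Smad7 lie below 0 with both exposures.

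With Δ9-THC, the same comparison of cell types called 8 of the 10 genes, 5 higher and 3 lower, against 35.7% of all genes called higher and 36% lower. Lefty1 had a log2(fold-change) of 3.01 (SE 0.13, adjusted p = 6.61e-10 by edgeR with Benjamini-Hochberg adjustment), Skil 1.62 and Acvr2b 1.03. These were the 3 genes over 1, a size reached by 11.5% of all genes. Nodal had a log2(fold-change) of 0.81 (SE 0.096, adjusted p = 7.98e-06 by edgeR with Benjamini-Hochberg adjustment), which was 0.38 with the vehicle. Gdf3 at -0.71, Smad7 at -0.44, Smad2 at -0.28 and Tdgf1 at 0.49 were close to their values with the vehicle. Not called were Lefty2 at 0.10 (SE 0.092, adjusted p = 0.368 by edgeR with Benjamini-Hochberg adjustment) and Smad3 at -0.16 (SE 0.096, adjusted p = 0.163 by edgeR with Benjamini-Hochberg adjustment). The small values of the Smads again depended on the settings. The adjusted p of edgeR (Benjamini-Hochberg) for Smad2 was 0.0506 without the second exposed ESC replicate and 0.0616 without the second exposed EpiLC replicate, and that for Smad3 was 0.0268 without the first exposed EpiLC replicate. With the offsets for GC content and gene length, the log2(fold-change) of Smad2 was -0.17, and with the replicate block as well its adjusted p (edgeR, Benjamini-Hochberg) was 0.0846.

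Δ9-THC against vehicle in ESCs gave small changes in the 10 genes. Nodal was lower and Smad2 higher with Δ9-THC, and the other 8 genes did not pass the test, with log2(fold-change) values from -0.08 for Gdf3 to 0.29 for Lefty1 and Skil. The 2 called genes compare with 6.91% of all 13104 genes. The median log2(fold-change) was 0.17 over the 10 genes, with 7 above 0, and 0.00 over all genes. The median size of the change was 0.20 and 0.10. At an unadjusted p under 0.05, edgeR counted 5 of the 10 genes and 3761 of all 13104.

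Nodal was at 68.5, 71.9 and 72.9 CPM in vehicle ESCs and at 63.3, 60.3 and 59.4 CPM in exposed ESCs. Each exposed library was below each vehicle library. The mean fell from 71.1 ± 2.28 to 61.0 ± 2.02 CPM (SD, n = 3 each), a log2(fold-change) of -0.21 (SE 0.039, adjusted p = 0.0385 by edgeR with Benjamini-Hochberg adjustment). Smad2 was at 81.7, 77.8 and 80.5 CPM in vehicle ESCs and at 85.9, 90.3 and 87.2 CPM in exposed ESCs. Again the groups did not overlap. The SDs of Nodal and Smad2 in ESCs, 2.52% to 3.31% of the mean, were close to their counting error of 2.07% to 2.52%. The log2(fold-change) of Smad2 was 0.15 (SE 0.033, adjusted p = 0.0479 by edgeR with Benjamini-Hochberg adjustment).

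Both calls were lost in the fit with the replicate number as a block, where the adjusted p of edgeR (Benjamini-Hochberg) was 0.415 for Nodal and 0.461 for Smad2. With offsets for GC content and gene length, the log2(fold-change) was -0.12 for Nodal and 0.10 for Smad2, with adjusted p of edgeR (Benjamini-Hochberg) of 0.135 and 0.203. Without any one of the 6 libraries, the adjusted p of edgeR (Benjamini-Hochberg) was 0.0721 to 0.141 for Nodal and 0.0752 to 0.156 for Smad2. The log2(fold-change) then ran from -0.23 to -0.19 for Nodal and from 0.13 to 0.17 for Smad2. Calls were lost over the whole table too. Of all 13104 genes, 906 were called in the main fit, 5 with the block, 7 with the offsets and 0 or 1 without single libraries.

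Lefty1 was higher in every exposed ESC library (26.0, 32.9 and 25.9 CPM) than in every vehicle library. The exposed values of replicates 1 and 3 were less than 1 CPM above the vehicle values of the same number, and replicate 2 carried most of the difference. Its log2(fold-change) was 0.29 (SE 0.14, adjusted p = 0.217 by edgeR with Benjamini-Hochberg adjustment). Lefty2 was at 129, 148 and 150 CPM in exposed ESCs, and the first exposed library fell within the vehicle range. Its log2(fold-change) was 0.25 (SE 0.078, adjusted p = 0.0971 by edgeR with Benjamini-Hochberg adjustment). Skil showed the same picture, at 75.9, 90.4 and 87.9 CPM with a log2(fold-change) of 0.29 (SE 0.090, adjusted p = 0.0925 by edgeR with Benjamini-Hochberg adjustment). DESeq2 called both Lefty2 (Benjamini-Hochberg adjusted p = 0.0275) and Skil (adjusted p = 0.0206), as well as Nodal (adjusted p = 0.0220), but not Smad2, where it called 5.79% of all genes. With the replicate number as a block, the adjusted p of edgeR (Benjamini-Hochberg) was 0.414 for both Lefty2 and Skil. In all, 2 of the 10 genes were higher and 1 lower in ESCs without overlap between the groups, against 16.7% and 15.9% of all genes.

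**Figure D3:**
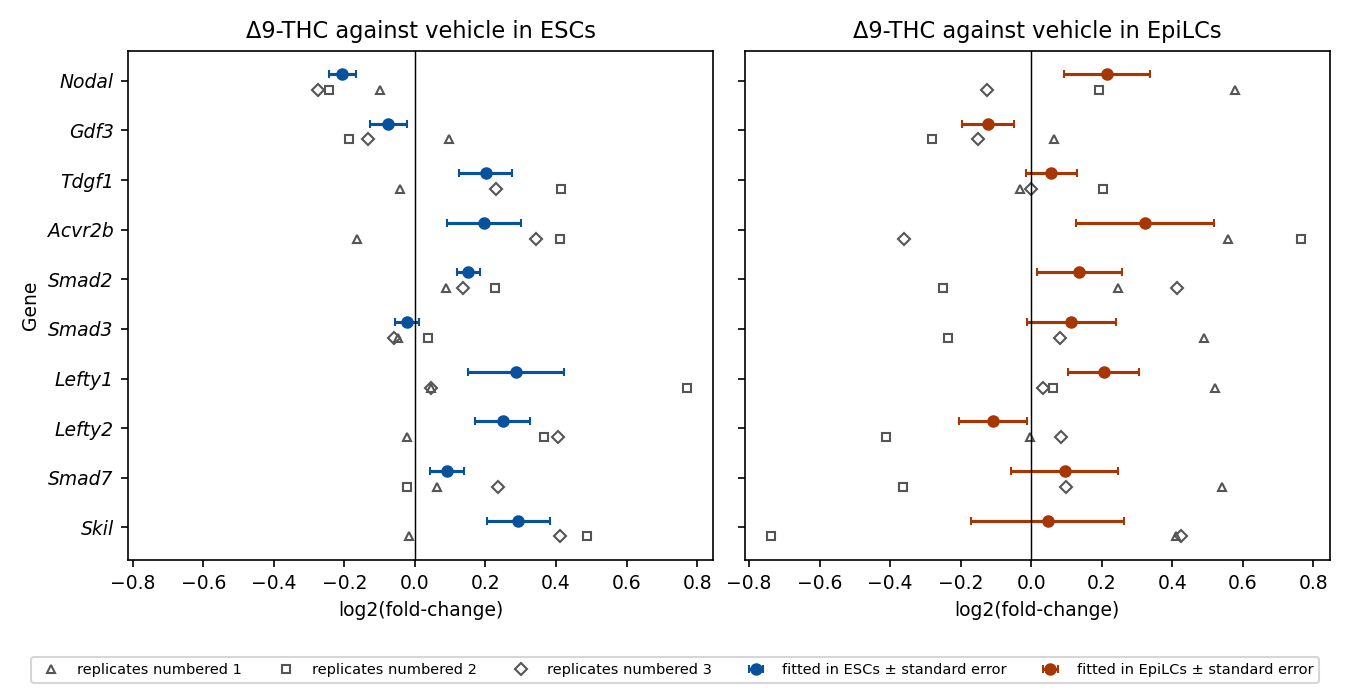
Δ9-THC against vehicle for the 10 genes in ESCs (left) and EpiLCs (right). Filled circles are fitted log2(fold-change) values with standard errors, and open symbols are the log2 differences of same-numbered libraries. In ESCs the open symbols of Nodal all lie below 0, those of Smad2 and Lefty1 all above 0, and those of the other genes on both sides. In EpiLCs the open symbols of every gene but Lefty1 lie on both sides of 0.

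In EpiLCs, none of the 10 genes passed the test for Δ9-THC, where 0% of the 13717 genes passed with edgeR. At an unadjusted p under 0.05, edgeR counted 2069 of all genes and 0 of the 10, and DESeq2 with Benjamini-Hochberg adjustment called 0.634% of all genes and 0 of the 10. With all 12 libraries in one model, edgeR called 3.31% of the shared genes and 0 of the 10. Nodal was at 81.3, 92.9 and 103 CPM in vehicle EpiLCs and at 121, 107 and 94.2 CPM in exposed ones. The ranges overlapped, and the sign differed between replicates, being positive in the first 2 and negative in the third one. Its log2(fold-change) was 0.21 (SE 0.12, adjusted p = 0.457 by edgeR with Benjamini-Hochberg adjustment).

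Lefty1 was at 254, 217 and 213 CPM in exposed EpiLCs, above all 3 vehicle libraries. The first replicate held most of this difference, and the log2(fold-change) was 0.21 (SE 0.10, adjusted p = 0.392 by edgeR with Benjamini-Hochberg adjustment). It was the only one of the 10 genes whose groups did not overlap in EpiLCs: 1 gene was higher and 0 lower, against 11.2% and 10.6% of all genes. Acvr2b had the largest fitted value, 0.32 (SE 0.20, adjusted p = 0.486 by edgeR with Benjamini-Hochberg adjustment), from 50.1, 53.6 and 35.7 CPM with Δ9-THC. The third exposed replicate lay within the vehicle range. Without single libraries, the values of these genes ran from 0.11 to 0.31 for Nodal, from 0.11 to 0.25 for Lefty1 and from 0.20 (without the second exposed replicate) to 0.51 (without the third vehicle replicate) for Acvr2b. Skil was the most spread, at 298, 187 and 296 CPM with Δ9-THC, and its second replicate moved against the others. Its log2(fold-change) was 0.05 (SE 0.22, adjusted p = 0.943 by edgeR with Benjamini-Hochberg adjustment). The other 6 genes had values from -0.12 for Gdf3 to 0.14 for Smad2.

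Whether ESCs and EpiLCs differed in their response to Δ9-THC was asked with an interaction term, and none of the 10 genes passed, against 0.0322% of all genes (4 of 12410) with edgeR. At an unadjusted p under 0.05, edgeR counted 2 of the 10 genes and 1703 of all genes, and DESeq2 called 0 of the 10 and 1.07% of all genes after adjustment. The 2 genes were Nodal and Lefty2. Nodal was lower with Δ9-THC in ESCs and higher on average in EpiLCs, with a difference of effects of 0.44 on the log2 scale (SE 0.13, adjusted p = 0.181 by edgeR with Benjamini-Hochberg adjustment). For Lefty2 the order was the reverse, with -0.34 (SE 0.13, adjusted p = 0.277 by edgeR with Benjamini-Hochberg adjustment). The other 8 genes had differences from -0.23 for Skil to 0.15 for Smad3.

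The ratio of 2 genes within a library does not depend on how that library is scaled. In ESCs, Lefty1 had far fewer counts than Lefty2, with ratios of 0.191, 0.167 and 0.223 with the vehicle and 0.201, 0.222 and 0.173 with Δ9-THC. In EpiLCs the ratios were 1.11, 1.14 and 1.37 for vehicle libraries and 1.6, 1.59 and 1.32 for exposed ones. Lefty2 was thus the more counted gene in all 6 ESC libraries and Lefty1 in all 6 EpiLC libraries. Per kilobase of exon, the geometric mean ratio of Lefty1 to Lefty2 was 0.286 in vehicle ESCs, 0.293 in exposed ESCs, 1.79 in vehicle EpiLCs and 2.22 in exposed EpiLCs. The vehicle and exposed libraries overlapped within each cell type.

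The log2 ratio of Smad2 to Smad3 counts was 1.16, 1.13 and 1.12 in vehicle ESCs and 1.29, 1.32 and 1.32 in exposed ESCs. The exposures did not overlap. The SDs of 0.017 and 0.016 were below the counting error of the ratio, 0.053 and 0.057 on the same scale, and with offsets for GC content and gene length the fitted changes of Smad2 and Smad3 were closer together, at 0.10 and 0.04. In EpiLCs the ratios were 1.17 ± 0.15 in vehicle and 1.19 ± 0.14 in exposed libraries (SD, n = 3 each), and the ranges overlapped widely. These ratios are given as a description, with no test.

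**Figure D4:**
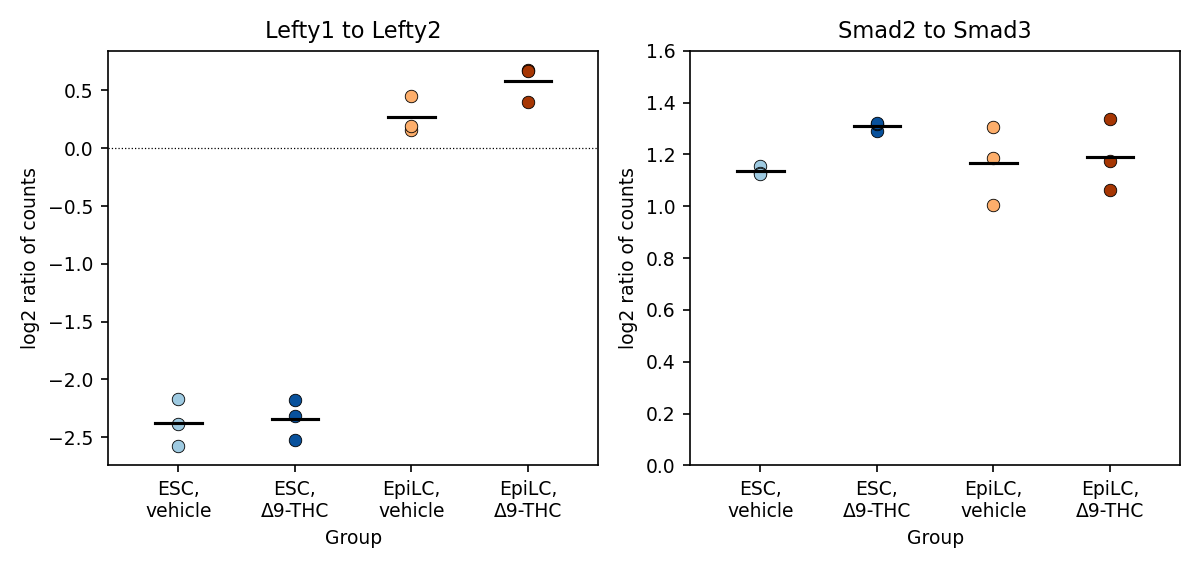
log2 ratio of counts within each library, for Lefty1 to Lefty2 (left) and Smad2 to Smad3 (right), by cell type and exposure. Points are libraries and lines are means of 3. The Lefty ratio lies near -2.4 in all ESC libraries and above 0 in all EpiLC libraries, and the Smad ratio is higher in exposed than in vehicle ESCs but spread over both exposures in EpiLCs.

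The other genes of the pathway were taken from a list of 44 ligands, processing enzymes, receptors, transducers, inhibitors and targets, of which 28 were in both tables and 9 in neither. From ESCs to EpiLCs with the vehicle, 21 of the 28 passed the test, 4 higher and 17 lower (edgeR, Benjamini-Hochberg), where 36.5% of all genes were called higher and 37.2% lower. The median log2(fold-change) of the 28 was -0.37, and that of the 10 genes above was 0.41. Among the ligands and the enzymes that process them, all 4 measured genes were lower in EpiLCs. Inhbb, which encodes an activin subunit, fell from 20.3 ± 2.21 to 1.33 ± 0.444 CPM (SD, n = 3 each), a log2(fold-change) of -3.96. Pcsk6, a convertase that cleaves the Nodal precursor, fell from 99.9 ± 5.85 to 8.87 ± 0.968 CPM, and Tgfb1 had a log2(fold-change) of -2.45.

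Of 4 measured receptors, 3 were lower and none higher in EpiLCs. Of 4 transducers and nuclear partners, 2 were lower and Foxh1 was higher. Foxh1, the DNA-binding partner of Smad2 and Smad3, rose from 28.1 ± 0.861 to 81.9 ± 11.9 CPM (SD, n = 3 each), a log2(fold-change) of 1.55 (SE 0.12). Inhibitors were mixed, with 3 of 13 higher and 6 lower. The higher ones were Tgif2 at 0.66, Ppm1a at 0.39 and Drap1 at 0.39. Of 3 measured targets, 2 were lower, and Nanog, a pluripotency factor that is also high in naive cells, fell from 1015 ± 62.9 to 187 ± 6.75 CPM, a log2(fold-change) of -2.44. With Δ9-THC, 18 of the 28 passed, 5 higher and 13 lower, where 35.7% of all genes were called higher and 36% lower.

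For Δ9-THC in ESCs, 2 of the 31 listed genes tested were called (edgeR, Benjamini-Hochberg), a share near the 6.91% of all genes. Ppm1a, a phosphatase of Smad2 and Smad3, was at 134 ± 1.46 CPM in vehicle ESCs and 150 ± 1.10 in exposed ones (SD, n = 3 each), a log2(fold-change) of 0.16 (SE 0.024, adjusted p = 0.0301 by edgeR with Benjamini-Hochberg adjustment). Ldlrad4, a membrane protein that binds Smad2 and Smad3, was low, at 2.11 ± 0.139 and 1.24 ± 0.121 CPM, with a log2(fold-change) of -0.76 (SE 0.12, adjusted p = 0.0301 by edgeR with Benjamini-Hochberg adjustment). The SDs of both genes were below their counting error, 1.6% of the level for Ppm1a and 12.7% for Ldlrad4 with the vehicle. With the replicate number as a block, and without any one of the 6 libraries, 0 of the listed genes were called. Of all 13104 genes, 5 were called with the block and 0 or 1 without single libraries. In EpiLCs, 0 of 32 were called for Δ9-THC, and 0 of 28 for the difference between the cell types.

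**Figure D5:**
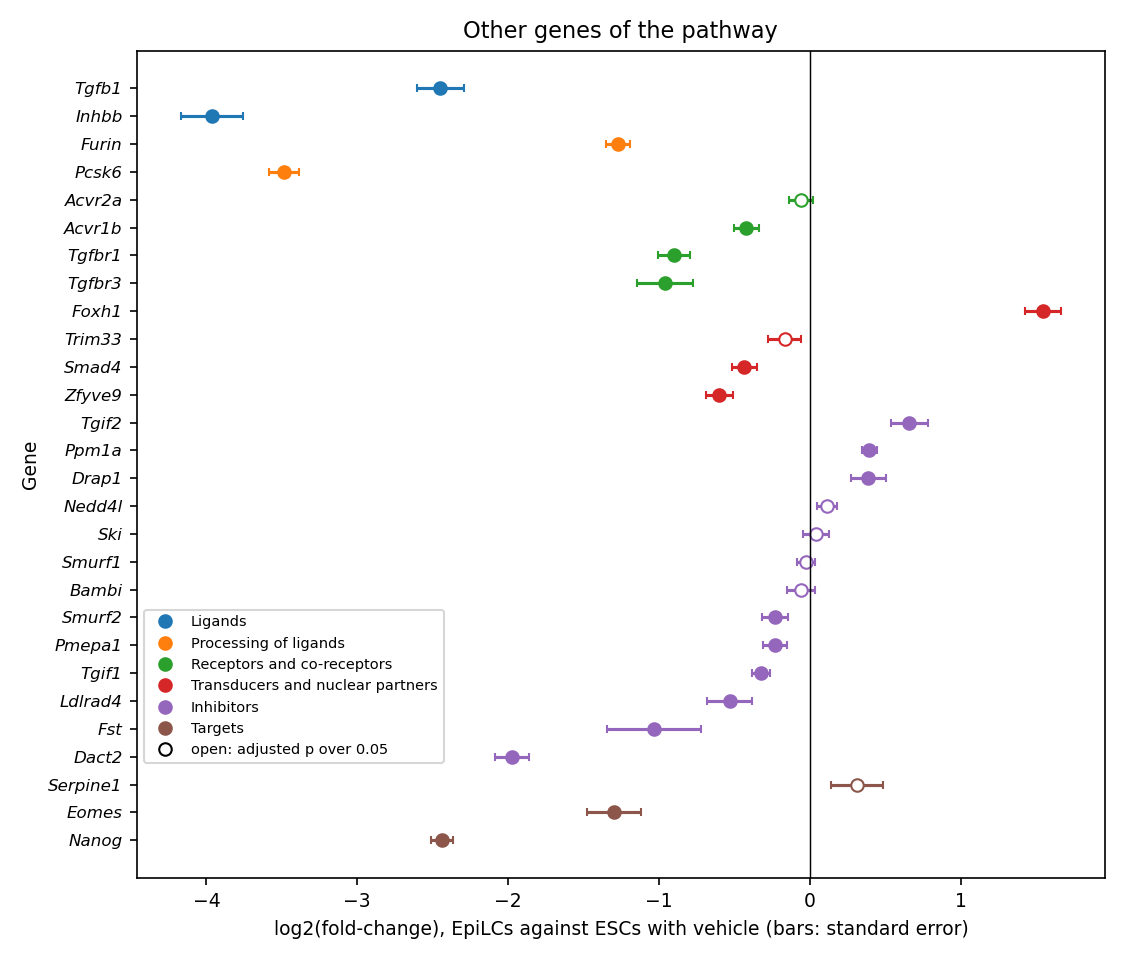
Fitted log2(fold-change) of EpiLCs against ESCs with the vehicle for the 28 listed pathway genes of both tables, coloured by role. Bars are standard errors and open points are genes with an adjusted p over 0.05. Inhbb and Pcsk6 lie at the lowest values and Foxh1 at the highest.

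The genes whose pattern over the 12 libraries was most like that of Nodal, Lefty1 and Lefty2 were ranked by the root mean square difference of log2 CPM after centring each gene on its own mean, among 12313 genes. For Nodal these were Ercc5 (0.0744), F2rl1 (0.0804) and Ssh2 (0.0808). For Lefty1 they were Arrb1 (0.125), Plk5 (0.144) and Ap1s3 (0.162), and for Lefty2 they were Tfg (0.0545), Slbp (0.0663) and Rnft1 (0.0671). None of these 9 genes is on the pathway list, but only 28 listed genes were in both tables, so this says little about the pathway. The 12 libraries share 2 cell types, so a gene with a like difference between cell types ranks high whatever its other changes.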

How the data were processed

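Poly(A) RNA-seq reads were aligned by the authors with STAR to a mouse genome named both mm10 and GRCm39, uniquely mapped reads were counted per gene with HTSeq, genes with low counts were removed, and ComBat-seq was applied. The deposited tables, one per cell type, contain the resulting whole-number adjusted counts. Kit and batch of each library were not given in the sources used here. All columns were assigned to a library (0 left over).

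Here, genes whose counts summed to over 10 were tested with edgeR 4.0.16 (quasi-likelihood, TMM) in R 4.3.3, within each cell type over 6 libraries and, for both cell types, in a 4-group model of the 12410 shared genes, with Benjamini-Hochberg adjustment at 0.05. SEs are those implied by the F statistic. Printed CPM of the 10 genes use 1 TMM scaling of 12 libraries, and those of other genes the scaling of their own table. At totals of 23427551 to 32096698 counts per library, the counting error of the 10 genes (0.646% to 4.16%) was mostly below the SD between libraries. Alternatives were RLE normalization, other filters, the replicate number as a block, offsets for GC content and length, DESeq2 1.42.0, other sample sets and each library left out. Same-numbered libraries of a cell type correlated at -0.988 to -0.978, so the numbers enter only as a block among the alternatives and as plotted differences. Positions, lengths and the comparison of gene copies come from GENCODE M21 (GRCm38) and played no part in counting. The sequences compared are not reported here. Genes named outside the 10 are those called for Δ9-THC on the pathway list, the 4 largest increases and 4 largest decreases on it with the vehicle, and the 3 nearest patterns. The fits were tested on simulated data, with libraries drawn independently and changes larger than those of the 10 genes with Δ9-THC. This does not show how the tests behave on mirrored libraries. The 10 genes and the lists were chosen with earlier results of these data known. The authors' tables of fold changes were not used.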

Additional observations from a re-analysis of the deposited data

How the results depend on the processing

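The calls for EpiLCs against ESCs were the most stable. All 10 genes were called with the vehicle, and 9 to 10 without single libraries, where 8589 to 9381 of all 12410 genes were called. With Δ9-THC, 8 were called, 7 to 9 without single libraries, and 7 with the replicate block and the offsets together. Over all 12410 genes, the calls with Δ9-THC were 8229 to 9076 without single libraries and 8371 with the block and the offsets. A required log2(fold-change) over 1 in size left 2 and 3 of the 10 genes, and 9 and 8 of the listed pathway genes, by construction. For Δ9-THC in ESCs, the 2 calls fell to 0 with the replicate number as a block, with GC and length offsets, with both, with all 12 libraries in one model, with a log2(fold-change) over 0.25 in size, and without each single library (0 to 0), while RLE normalization gave 2 and DESeq2 gave 3. Without single libraries, 0 or 1 of all 13104 genes passed in ESCs. The filters could not bear on the calls, since they left out at most 10 genes of this table. The 2 pathway genes called there fell to 0 in the same settings, except 1 with a log2(fold-change) over 0.25, and without each single library (0 to 0), and DESeq2 called 4. DESeq2 also called 1 pathway gene for the difference between the cell types. The replicate block gave 8535 calls over all genes for EpiLCs against ESCs with the vehicle (9146 without it) and 5 for Δ9-THC in ESCs (906 without it), and changed no call of the 10 genes beside Nodal (adjusted p = 0.415) and Smad2 (0.461) in ESCs; by number, vehicle and exposed libraries correlated at -0.988 to -0.978, against 0.207 to 0.708 for different numbers of the same cell type. Over all genes, offsets gave 7 calls in ESCs and all 12 libraries in one model 31, and that model gave 411 in EpiLCs where the fit within EpiLCs gave 0 and DESeq2 87. For the difference between the cell types, the 4 calls over all genes became 0 with the block, 16 with the offsets and 133 with DESeq2. The cause of these shifts was not tested.

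Signs turned only for small values that passed no test. With the offsets, alone and with the block, Smad3 in ESCs was at 0.043 and 0.043, Skil in EpiLCs at -0.094 and -0.10, and the differences of effects were at 0.021 and 0.022 for Gdf3, -0.059 and -0.059 for Smad2, and -0.019 and -0.020 for Smad7. The difference for Smad2 was -0.0025 with both RLE normalization and DESeq2. Without single libraries, the values in EpiLCs ran from -0.000202 to 0.20 for Smad3, -0.041 to 0.20 for Smad7 and -0.072 to 0.23 for Skil. The differences of effects ran from -0.081 to 0.013 for Gdf3, -0.067 to 0.10 for Smad2, -0.15 to 0.061 for Lefty1 and -0.11 to 0.13 for Smad7. At 478 counts or more in each library, the counting error of the 10 genes was at most 4.16%, and the 3 adjusted libraries per group set the limit.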
